A study of Mus musculus with 8 samples.

Results

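Ovarian RNA levels of 8 genes that make, move or break down prostaglandins were examined in pioglitazone-treated and vehicle-treated LY mice. The genes were taken by symbol as Pla2g4a, Ptgs1, Ptgs2, Ptgds, Ptges, Ptgis, Hpgd and Slco2a1. Of these 8 genes, 7 had a named probe, with 2 probes for Slco2a1 and 1 for each of the others, against 18069 genes named on the array. Ptgs1 was not analysed here because no probe carried its symbol. All mice were female and heterozygous for the lethal yellow allele at the agouti locus (C57BL/6J Ay/a), which is active in most tissues and leads to obesity and insulin resistance with age. The 4 pioglitazone mice were dosed orally every day for 60 days, between 120 and 180 days of age. The 4 vehicle mice received DMSO alone on the same schedule. The daily dose is 0.1 mg in the series description and 0.01 mg in the methods. RNA of each mouse was hybridised to its own CodeLink mouse array, and the stage of the estrous cycle is not given in the sources used here.

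Prostaglandins are short-lived lipid signals made from arachidonic acid. Cytosolic phospholipase A2, the product of Pla2g4a, releases arachidonic acid from membranes, and the cyclooxygenases encoded by Ptgs1 and Ptgs2 turn it into prostaglandin H2. Terminal synthases then form prostaglandin D2 (Ptgds), E2 (Ptges) and I2 or prostacyclin (Ptgis). The carrier encoded by Slco2a1 takes prostaglandins up into cells, where 15-hydroxyprostaglandin dehydrogenase, encoded by Hpgd, inactivates them. In the mouse ovary, Ptgs2 is induced in granulosa cells before ovulation and is needed for cumulus expansion and follicle rupture, and prostaglandin F2 alpha acts on the corpus luteum at its regression. Pioglitazone is a ligand of PPARγ, a nuclear receptor that pairs with RXR and binds repeats of the element AGGTCA.

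Values are linear intensities, corrected for background and divided by the array median, so that 1 relative intensity unit is the median probe of an array. The limit of sensitivity used here is 0.2 units. All 8 member probes had a value at or above 0.2 in all 8 arrays, so none of the 64 values was missing or under that limit. Intensities of different probes are not on a common scale, and only differences between mice are compared. Across arrays, 47 to 211 of 36227 spots were missing and 82.5% to 83.9% of probes reached 0.2 units. The oocyte genes Zp3 and Gdf9 were above 0.2 units in every array. Summed levels overlapped between the groups for 11 of 12 marker lists, and for the smooth muscle list (4 of 4 genes with a probe) they did not, with 186 to 224 units in pioglitazone mice and 164 to 179 in vehicle mice. Bright probes dominate such a sum, and by the mean log2 level of the same list the groups overlapped, at 4.45 to 5.31 in pioglitazone mice and 4.21 to 4.67 in vehicle mice. Pioglitazone mouse 1 stood apart from the others in its adipocyte genes (4 of 7 with a probe), with a summed level of 107 units, against 14.4 to 33.0 in the other pioglitazone mice and 24.3 to 59.6 in vehicle mice.

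None of the 8 member probes differed between pioglitazone-treated and vehicle-treated mice at an adjusted p of 0.05 in limma, and none did at an unadjusted p under 0.05. Over all 30634 probes tested, 0% passed at the adjusted p and 5.5% at the unadjusted p (1685 probes, 1.97% higher and 3.53% lower). The pioglitazone and vehicle values overlapped in all 8 member probes, where 4.58% of probes with a value in every array had groups that did not overlap. Log2 fold changes were positive for Pla2g4a, Ptgs2, Ptgis and Hpgd and negative for Ptgds, Ptges and both Slco2a1 probes. Their median size was 0.36, with both Slco2a1 probes counted, against 0.17 for all probes tested. Members also differed in their spread within a group. The SD of log2 values was smaller in 99.6% of probes than for Ptgds in vehicle mice. It was smaller in 92.3% than for Slco2a1 probe 88005 in pioglitazone mice, and in 1.13% than for Ptgs2 in vehicle mice. The median sizes are a description only. The upper 95% limit of the fold change was under 2-fold for all 8 probes, and the lower limit was above 0.5-fold for 6 of them, all but Ptgds and the Slco2a1 probe 88005. In RNA of whole ovary, fewer cells of a type and less RNA per cell cannot be told apart.

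**Figure D1:**
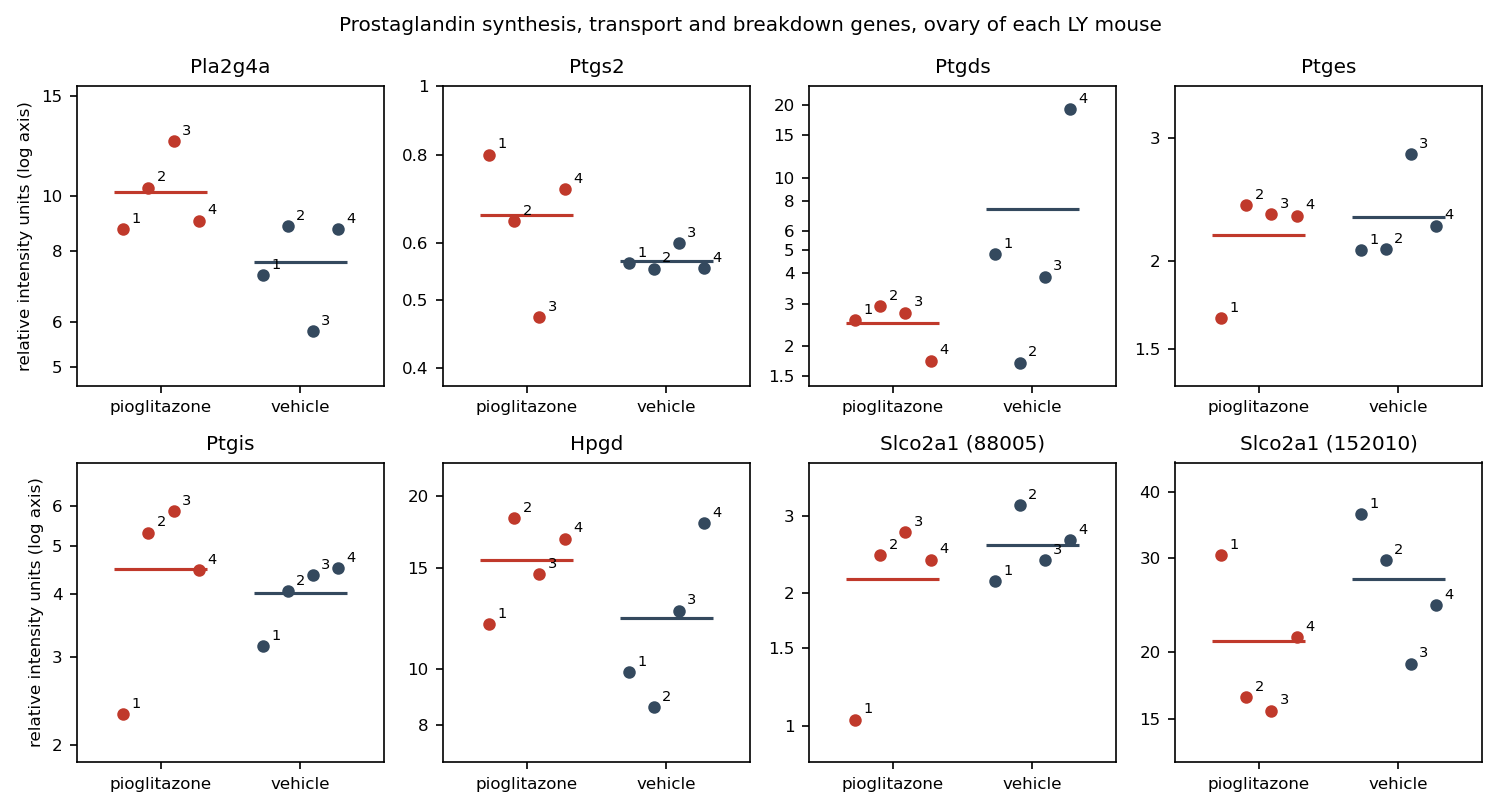
Relative intensity units (log axes) of the 8 member probes in each pioglitazone mouse (left in each panel) and vehicle mouse (right); points are mice with their numbers and horizontal lines are group means. The groups overlap in every panel, and Ptgds in vehicle mouse 4, at 19.2 units, lies far above the other 7 mice.

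Upstream sequence is shown for Pla2g4a, Ptgs2 and Slco2a1, which begin the pathway, commit arachidonic acid to prostaglandins and remove the products. Each run covers the 250 bases before the transcript start given by RefSeq (build GRCm38.p6), at chr1:149961291-149961540 on the minus strand, chr1:150099781-150100030 on the plus strand and chr9:103008237-103008486 on the plus strand. Capitals mark matches, on either strand, to the receptor element AGGTCA, to the TATA box with letters TATAAA, to the E-box with letters CACGTG, to the cAMP response element with letters TGACGTCA or to the GC box with letters GGGCGG.
Pla2g4a: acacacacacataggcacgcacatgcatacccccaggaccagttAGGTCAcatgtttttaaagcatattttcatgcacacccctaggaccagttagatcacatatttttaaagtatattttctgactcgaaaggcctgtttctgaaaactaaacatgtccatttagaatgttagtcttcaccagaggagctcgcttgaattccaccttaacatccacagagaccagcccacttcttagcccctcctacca
Ptgs2: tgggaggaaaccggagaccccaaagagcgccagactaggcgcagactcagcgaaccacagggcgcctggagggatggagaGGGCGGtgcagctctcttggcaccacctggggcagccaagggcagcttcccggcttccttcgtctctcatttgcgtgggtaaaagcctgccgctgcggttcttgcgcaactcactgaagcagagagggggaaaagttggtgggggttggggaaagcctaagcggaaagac
Slco2a1: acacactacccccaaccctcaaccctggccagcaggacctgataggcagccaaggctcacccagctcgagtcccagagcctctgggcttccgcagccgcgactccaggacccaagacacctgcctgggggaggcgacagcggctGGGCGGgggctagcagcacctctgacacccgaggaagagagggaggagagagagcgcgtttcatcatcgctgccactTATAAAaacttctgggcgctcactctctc
Promoters were found for 7 of the 8 members, and Ptgis had no entry. Pla2g4a has 2 starts in the table, and the one printed held an AGGTCA 206 bases upstream. No other member held it, and 14% of 32851 promoters of the same length did. A direct repeat of AGGTCA with 1 base between, the arrangement PPARγ and RXR prefer, was in none of the members and in 0.0335% of all promoters. GC boxes, present in 32.7% of all promoters, were found upstream of Ptgs2, Ptges, Hpgd and Slco2a1. Slco2a1 had a TATA box match 29 bases before its start, and the Pla2g4a start that is not printed had one 200 bases upstream. Such a match was seen in 12.4% of promoters. The E-box and the cAMP response element, in 6.02% and 1.55% of promoters, were in none of the 7 members. This holds for the exact letters in the 250 bases before each start. Partial matches and sequence past the start were not searched, so a member may carry these elements elsewhere. These matches describe the letters and are not measured binding sites.

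Pla2g4a had 8.76, 10.3, 12.5 and 9.05 units in pioglitazone mice 1 to 4, against 7.25, 8.86, 5.79 and 8.75 units in vehicle mice 1 to 4. Pioglitazone mice 2, 3 and 4 were above all vehicle mice, and pioglitazone mouse 1 was just under vehicle mouse 2. The means were 10.2 ± 1.7 and 7.66 ± 1.45 units (SD, n = 4 each), a ratio of 1.33. The log2 fold change was 0.41 (standard error 0.19, 95% interval -0.01 to 0.84), with an adjusted p of 0.837 in limma. A 2-sided exact permutation test gave p = 0.0571, where 4 against 4 mice allow no p below 0.0286. That test takes all 8 mice as exchangeable and ignores their numbers. Pla2g4a had the smallest p of the 8 member probes and did not pass either test. Its log2 fold change ran from 0.29 without vehicle mouse 3 to 0.49 without vehicle mouse 2. Without vehicle mouse 2, vehicle mouse 4 or pioglitazone mouse 1, with quantile or cyclic loess normalization, or among probes of at least 0.2 units in every array, its unadjusted p in limma was under 0.05 (0.0423, 0.0476, 0.0432, 0.0251, 0.0326 and 0.0491), and the lowest adjusted p among these was 0.605.

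Ptgs2 encodes the inducible cyclooxygenase. Its probe gave 0.801, 0.646, 0.472 and 0.716 units in pioglitazone mice 1 to 4, against 0.562, 0.553, 0.600 and 0.553 units in vehicle mice 1 to 4. The pioglitazone values lay on both sides of the vehicle values, with mouse 3 below all vehicle mice and mice 1, 2 and 4 above all of them. The vehicle mice were close together, and on the log2 scale only 1.13% of probes had a smaller SD among vehicle mice, while 66.4% had a smaller SD among pioglitazone mice. The ratio of means was 1.16 and the log2 fold change 0.19 (standard error 0.18, adjusted p = 0.884 in limma). The difference ranged from 0.09 without pioglitazone mouse 1 to 0.34 without pioglitazone mouse 3. Pla2g4a and Ptgs2 are neighbours on chromosome 1, with no protein-coding gene between them in RefSeq. In each group the mouse with the highest Pla2g4a was not the mouse with the highest Ptgs2, and pioglitazone mouse 3 had the highest Pla2g4a and the lowest Ptgs2 of all 8 mice.

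Among the terminal synthases, Ptgds had the widest spread. The probe for this lipocalin-type prostaglandin D synthase had 2.57, 2.93, 2.75 and 1.74 units in pioglitazone mice 1 to 4, against 4.82, 1.71, 3.88 and 19.2 units in vehicle mice 1 to 4. All pioglitazone mice were below vehicle mice 1, 3 and 4 and above vehicle mouse 2. The mean was 2.50 ± 0.53 in pioglitazone and 7.41 ± 7.99 units in vehicle mice (SD, n = 4 each), and the coefficient of variation was 21.1% in pioglitazone and 108% in vehicle mice. Of all probes tested, 99.6% had a smaller SD of log2 values among vehicle mice. The log2 fold change was -1.02 (standard error 0.61, 95% interval -2.40 to 0.35, adjusted p = 0.848 in limma), and 99.6% of probes had a smaller one in size. Without vehicle mouse 4 the log2 fold change was -0.37, and without vehicle mouse 2 it was -1.54 at an unadjusted p of 0.0166 in limma and an adjusted p of 0.926.

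Ptges, the inducible microsomal prostaglandin E synthase, had 1.66, 2.41, 2.33 and 2.32 units in pioglitazone mice, against 2.07, 2.08, 2.85 and 2.25 units in vehicle mice. Its means were within the spread of the groups, at 2.18 ± 0.35 and 2.31 ± 0.37 units (SD, n = 4 each), with a log2 fold change of -0.09 (95% interval -0.48 to 0.31, adjusted p = 0.944 in limma). Pioglitazone mouse 1 was the lowest of the 8, and without it the log2 fold change was 0.039. Ptgis, the prostacyclin synthase of vascular endothelium and smooth muscle, had 2.31, 5.31, 5.87 and 4.47 units in pioglitazone mice and 3.16, 4.06, 4.37 and 4.51 units in vehicle mice. Pioglitazone mice 2 and 3 were above all vehicle mice and pioglitazone mouse 1 was below them all, so the coefficient of variation was 34.8% in pioglitazone and 15.1% in vehicle mice. The log2 fold change of Ptgis was 0.09 (95% interval -0.55 to 0.73, adjusted p = 0.968 in limma) with all mice and 0.38 without pioglitazone mouse 1. Of the 4 smooth muscle markers, only Myh11 had groups that did not overlap (adjusted p = 0.837 in limma), as had 4.58% of probes with a value in every array. Over the 8 arrays, Ptgis had r = 0.63 with the mean log2 level of the smooth muscle list. With the endothelial list r was 0.68 and with the luteal list 0.64, so the smooth muscle value was not particular. Within vehicle mice r was 0.39 with the smooth muscle, -0.58 with the endothelial and 0.44 with the luteal list. Among the marker lists, the r of Ptgis was highest with theca and stroma (0.79) and lowest with adipocyte genes (-0.77). The groups differed in both, at 0.88 in pioglitazone and 0.43 in vehicle mice for theca and stroma. For adipocyte genes r was -0.85 in pioglitazone mice, where mouse 1 stood apart, and -0.14 in vehicle mice. The part of smooth muscle or of any other cell type in the Ptgis values was not tested.

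Slco2a1, the prostaglandin transporter, was measured by 2 probes, 88005 (designed on a RefSeq transcript) and 152010 (designed on a cDNA clone). Probe 88005 had 1.03, 2.44, 2.76 and 2.39 units in pioglitazone mice and 2.13, 3.17, 2.38 and 2.64 units in vehicle mice. Pioglitazone mouse 1 was the lowest of the 8, and the other pioglitazone mice lay within the vehicle range. Probe 152010 had 30.4, 16.5, 15.6 and 21.4 units in pioglitazone mice and 36.3, 29.8, 19.1 and 24.5 units in vehicle mice. Pioglitazone mice 2 and 3 were below all vehicle mice, and pioglitazone mouse 1 was above 3 of the 4. The log2 fold change of probe 88005 was -0.34 (standard error 0.30, adjusted p = 0.879 in limma), and probe 152010 had -0.40 (standard error 0.26, adjusted p = 0.857 in limma). The probes thus had like group differences but ordered the mice differently, since pioglitazone mouse 1 was the lowest on one and the second highest on the other. Without pioglitazone mouse 1 the log2 fold change of 88005 was -0.02 and that of 152010 was -0.60 (unadjusted p = 0.0355, adjusted p = 0.605 in limma). With the log2 values of both probes averaged, the log2 fold change of Slco2a1 was -0.37 (standard error 0.16, unadjusted p = 0.0414, adjusted p = 0.939 in limma). Between the 2 probes r was -0.36 over the 8 arrays, at -0.93 in pioglitazone and -0.08 in vehicle mice. Their deviations thus partly cancel in the average, and its smaller standard error does not show that the probes measure the same thing.

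Hpgd starts the inactivation of prostaglandins E2 and F2 alpha. The probe had 12.0, 18.3, 14.6 and 16.9 units in pioglitazone mice, against 9.88, 8.59, 12.6 and 17.9 units in vehicle mice. Vehicle mice 1 and 2 were below all pioglitazone mice, while vehicle mouse 4 was above 3 of the 4. Means were 15.5 ± 2.8 and 12.3 ± 4.1 units (SD, n = 4 each), and the log2 fold change was 0.37 (standard error 0.24, 95% interval -0.18 to 0.92, adjusted p = 0.857 in limma). Without vehicle mouse 4 it was 0.58, at an unadjusted p of 0.0256 and an adjusted p of 0.697 in limma. Vehicle mouse 4 thus carried the highest vehicle value of both Hpgd and Ptgds, with fold changes of opposite sign, and leaving it out moved Hpgd away from 0 and Ptgds towards 0.

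**Figure D2:**
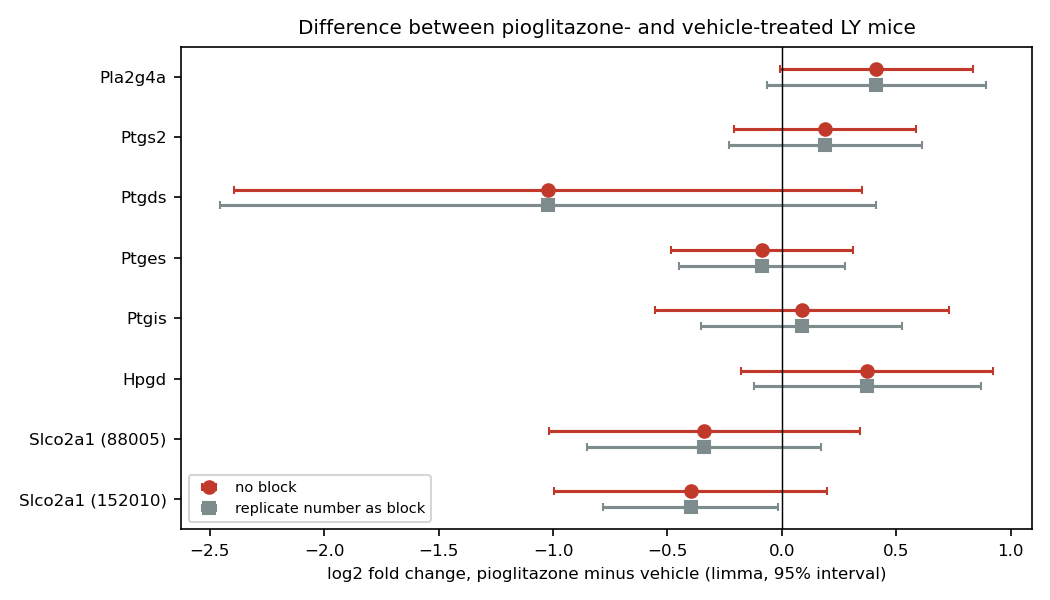
Log2 fold change of each member probe, pioglitazone minus vehicle, with its 95% interval in limma; circles are the comparison without a block and squares the comparison with the replicate number as a block. Every interval without the block crosses 0, and with the block only that of the Slco2a1 probe 152010 does not, at -0.78 to -0.02.

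The mice carry numbers 1 to 4 in each group, and arrays with the same number deviated together. With the number as a block, 1 of the 8 member probes had an unadjusted p under 0.05, against 8.6% of all probes tested (2635 probes) and 5.2% that were lower. This was Slco2a1 probe 152010, with a log2 fold change of -0.40 (standard error 0.16, unadjusted p = 0.0434, adjusted p = 0.575 in limma). It was lower in the pioglitazone mouse of all 4 pairs. In pairs 1 to 4 its log2 differences were -0.25, -0.85, -0.29 and -0.20. Pla2g4a was higher in 4 of 4 pairs, by 0.27, 0.22, 1.11 and 0.05, so that the pair of mice numbered 3 carried most of its difference, and its unadjusted p with the block in limma was 0.0800. Ptgs2 and Hpgd were higher in 3 of 4 pairs, Ptgds and Slco2a1 probe 88005 were lower in 3 of 4, and Ptges and Ptgis were split evenly. The share of all probes with the same direction in all 4 pairs was not computed, so these counts are a description only.

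**Figure D3:**
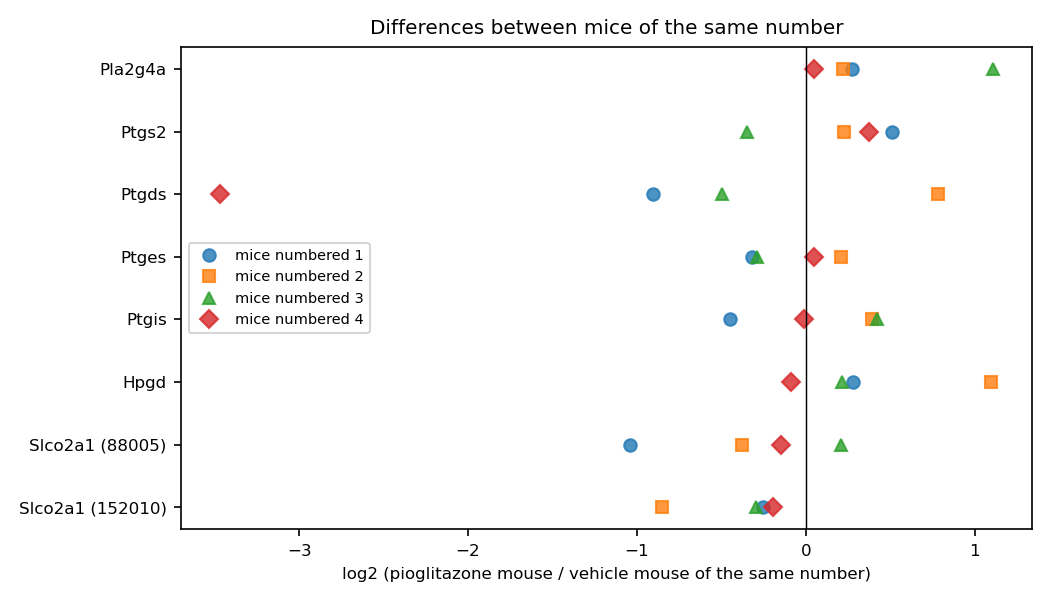
Log2 ratio of each pioglitazone mouse to the vehicle mouse of the same number, for the 8 member probes; each symbol is 1 pair of mice. Pla2g4a lies right of 0 and Slco2a1 probe 152010 left of 0 in all 4 pairs, and the Ptgds pair numbered 4 lies at -3.47.

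Several members varied with the main axis of difference between the arrays. The first principal component of the log2 values, which held 39.2% of the variance, had scores of -71.0, 16.6, 43.2 and -23.0 in pioglitazone mice 1 to 4, against -44.4, 28.5, 57.1 and -6.98 in vehicle mice 1 to 4. Mice 2 and 3 were at the high end and mouse 1 at the low end in both groups. Correlations over the 8 arrays are given as a description with no p, since arrays of the same number deviated together and are not exchangeable. Of the 8 relations computed, Ptges had r = 0.80 and rho = 0.79 with the score, and r = 0.33 without the 2 arrays farthest from the median score, so its relation rests on those arrays. Ptgis had r = 0.79 and rho = 0.55, with r = 0.76 without those 2 arrays. Slco2a1 probe 88005 had r = 0.74 and rho = 0.60, with r = 0.80 without them. Probe 152010 ran the other way, with r = -0.68, rho = -0.71 and r = -0.62 without them, and Ptgs2 had r = -0.63. Pla2g4a, Ptgds and Hpgd had r between -0.07 and 0.08, and Pla2g4a had r = 0.83 without the 2 arrays. Among the 28 pairs of member probes, Ptgis and Slco2a1 probe 152010 had r = -0.82 and rho = -0.88. Without the 2 arrays farthest from the median Ptgis level, pioglitazone mouse 1 and vehicle mouse 1, r was -0.87. Ptgis and probe 88005 had r = 0.82 (rho = 0.62), which was -0.18 without the same 2 mice and so rests on them.

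**Figure D4:**
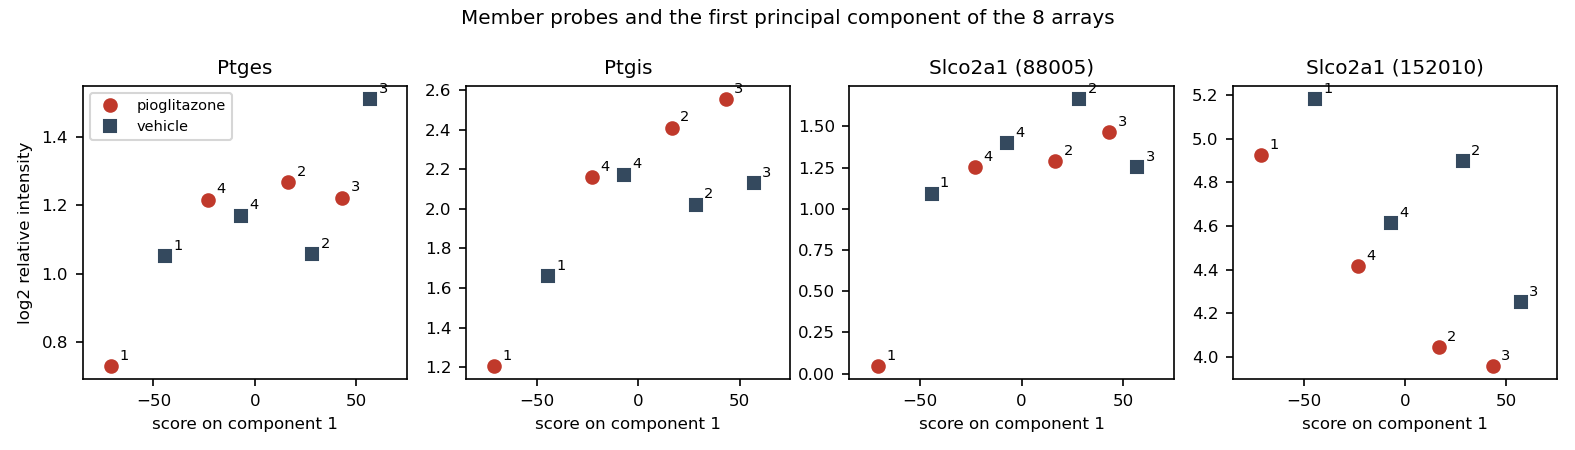
Log2 relative intensity of Ptges, Ptgis and the Slco2a1 probes against the score of each array on component 1; circles are pioglitazone mice, squares vehicle mice, with mouse numbers. Ptges, Ptgis and probe 88005 are lowest in pioglitazone mouse 1, at a score of -71.0, where probe 152010 is the second highest.

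The 3 genes whose log2 values were most like a member over the 8 arrays were picked from 16016 named genes, and their correlations describe that search. Pla2g4a was most like D430041D05Rik (r = 0.95), Rb1, the retinoblastoma protein gene (r = 0.95), and Tmem52b (r = 0.94). Ptgs2 was most like Myrip (r = 0.97), Lypd1 (r = 0.96) and Smim5 (r = 0.96). Ptgds had the weakest likeness of the 7 members, with Susd4 (r = 0.89), Fnd3c2 (r = 0.87) and Slc47a1, an exporter of organic cations (r = 0.85). Ptges was most like Polm, a DNA polymerase gene (r = 0.96), Gm19325 (r = 0.95) and Fam76a (r = 0.95). Ptgis was most like Galnt6, which starts O-linked glycosylation (r = 0.98), Edem2 (r = 0.98) and Dyrk2, a protein kinase gene (r = 0.98). Hpgd was most like Rc3h1, which encodes the RNA-binding protein roquin (r = 0.98), Eya2 (r = 0.94) and E130102H24Rik (r = 0.92). Slco2a1 probe 152010 was most like Sec61g, a subunit of the protein channel of the endoplasmic reticulum (r = 0.99), Poldip3 (r = 0.99) and Slc15a2, a peptide transporter gene (r = 0.98).

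**Figure D5:**
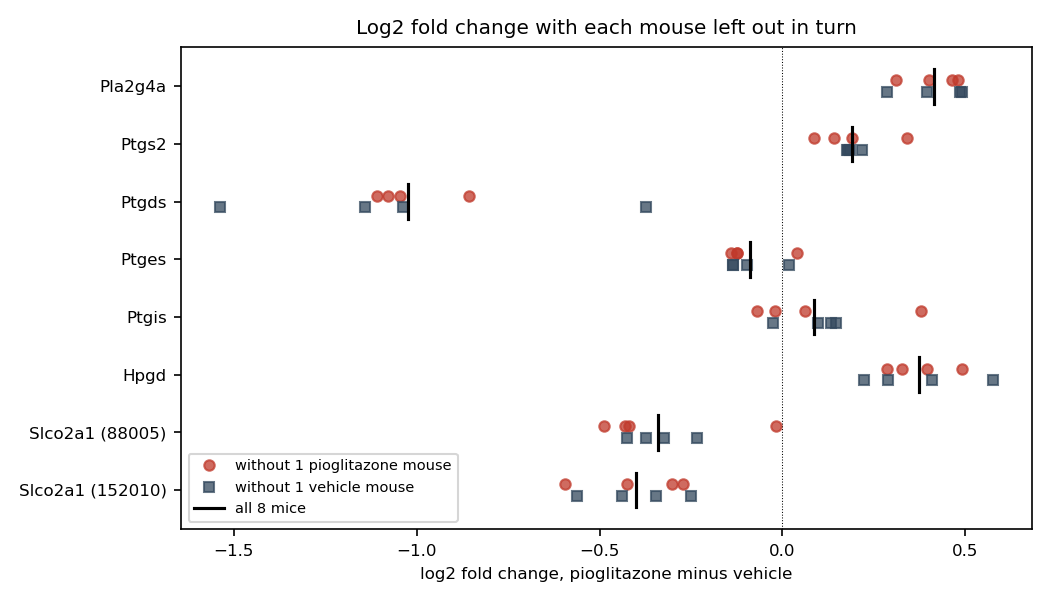
Log2 fold change of each member probe, pioglitazone minus vehicle, with 1 pioglitazone mouse (circles) or 1 vehicle mouse (squares) left out; black bars are the values with all 8 mice. Ptgds moves between -1.54 and -0.37, Ptges and Ptgis cross 0, and the other 5 probes keep their sign.

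Other genes of the pathway were read from the same comparison. Of 29 tested probes (23 genes) of other synthesis and breakdown genes, 0 were called at an unadjusted p under 0.05, with 9 higher and 20 lower and a median log2 fold change of -0.06, against -0.03 over all probes tested. The lowest p was that of Pla2g4e, a phospholipase A2 gene, with 3.43 ± 0.52 units in pioglitazone and 4.45 ± 0.75 units in vehicle mice (SD, n = 4 each; log2 fold change -0.37, adjusted p = 0.837 in limma). Of 11 probes of the lipoxygenase branch, which makes leukotrienes and related lipids from the same arachidonic acid, 0 were called, with 6 higher and 5 lower and a median of 0.01. The lowest p of that branch was that of Alox5, the 5-lipoxygenase, with 0.233 ± 0.041 units in pioglitazone and 0.164 ± 0.067 units in vehicle mice (SD, n = 4 each; log2 fold change 0.58, adjusted p = 0.837 in limma), near the limit of 0.2. Of 10 prostanoid receptor probes (9 genes), 1 was higher at an unadjusted p under 0.05, as were 1.97% of all probes. It was the only such probe among the 50 tested in these pathway lists, so the share was near that of all probes. It was Ptgdr, a receptor for prostaglandin D2, the product of Ptgds, at 0.290, 0.227, 0.110 and 0.178 units in pioglitazone mice and 0.104, 0.128, 0.105 and 0.0674 in vehicle mice. All vehicle values of Ptgdr and 2 of its pioglitazone values were under the limit of 0.2, and the groups overlapped. No pathway probe passed an adjusted p of 0.05 in limma. With the replicate number as a block, 4 of these 50 probes had an unadjusted p under 0.05 at an adjusted p of 0.575 in limma, where 8.6% of all probes did, so their share was near that of all probes. They were Akr1c18 (lower), and Ptgdr, Pla2g10 and Alox5 (higher). Akr1c18, the 20 alpha-hydroxysteroid dehydrogenase of the regressing corpus luteum, varied widely between mice, at 0.578, 11.6, 5.27 and 0.910 units in pioglitazone mice and 0.674, 36.2, 12.8 and 1.62 in vehicle mice, high in mice 2 and 3 of both groups. It is also in the luteal marker list, whose summed level was 134 to 331 units in pioglitazone and 264 to 378 units in vehicle mice, and the part of luteal tissue in its values was not tested.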

How the data were processed

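Linear intensities of 8 arrays (4 pioglitazone, 4 vehicle) were deposited as 1 table. The authors subtracted background from spot intensities with the CodeLink program and scaled every slide to its own median in GeneSpring. The methods also name a scaling per gene, but the deposited values of a probe do not centre on 1. Missing spots carried the code -9999. Here each array was again scaled to its median, anything below 0.05 was set to 0.05, and limma 3.58.1 under R 4.3.3 (lmFit, eBayes, Benjamini-Hochberg adjustment) was run on log2 values. Probes entered with 3 or more values per group and a group mean of 0.2 or more in either group, which left 30634 probes. The fit was tested on simulated data. Probes were named from the platform annotation (22296 of 36227 probes, 21615 with 1 gene, 681 with several, 13931 with none). Single probes also had a 2-sided exact permutation test over 70 assignments, which ignores the numbers of the mice. Intervals are 95% and not adjusted. The number of arrays limits the precision.

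All member probes are described, with the 3 genes most similar to the brightest probe of each gene and, of each pathway list, the gene with the smallest p and those called with the block. Members, lists and rules were chosen with earlier results of these data known. Arrays with the same number correlated after removal of the group means (r = 0.515, 0.181, 0.274 and 0.232 for numbers 1 to 4), so the numbers were taken to pair the mice. Of the 12 pairs of different numbers, pioglitazone mouse 3 with vehicle mouse 2 had r = 0.369, above 3 of the 4 pairs, and the others lay between -0.528 and 0.157. The number comes from the sample titles, which name no shared cage or day. Each array is 1 mouse, so p-values set the group difference against the spread between mice. In limma that spread is drawn towards that of all probes, and with the block it is the spread left after the numbers. Alternatives were floors of 0.01 and 0.2, quantile and cyclic loess normalization, the deposited scale, other filters, an intensity trend, the methods' t-test, the block, each array left out and the mean over probes of a gene.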

Additional observations from a re-analysis of the deposited data

Results flagged for a closer look

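Ptges in pioglitazone mouse 1, at 1.66 units, lay far below the other 3 pioglitazone mice (2.32 to 2.41 units) relative to the range of the group. It was the only such value among 16 sets of 4 mice, and chance gives about 1 in 20.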

How the results depend on the processing

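No member probe and no other pathway probe passed an adjusted p of 0.05 in limma or in the methods' t-test under any alternative. Of 162 values of member log2 fold changes under alternatives, 157 kept their sign and 12 had an unadjusted p under 0.05, of which 2 are the mean over both Slco2a1 probes counted for each probe. With each mouse left out, Ptges ran from -0.14 to 0.039 and Ptgis from -0.069 to 0.38, and these 2 changed sign. All probes at an unadjusted p under 0.05 numbered 1685, against 2635 with the replicate block and 737 (without pioglitazone mouse 4) to 2443 (without pioglitazone mouse 1) with a mouse left out. Member probes at an unadjusted p under 0.05 numbered 0, against 1 with quantile normalization, cyclic loess normalization, at least 0.2 in every array or the replicate block, and 0 to 2 with a mouse left out. Other pathway probes numbered 1, against 0 with a floor of 0.2 or at least 0.2 in every array, 2 with the methods' t-test, 4 with the replicate block and 0 to 3 with a mouse left out. Without both mice numbered 1, an alternative chosen after seeing the data, they numbered 0, and 3 with the block. The causes were not tested. The replicate block changed no other call of a member.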
